A study of Mus musculus with 4 samples.

Results

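The 102 genes described here encode enzymes that oxidise, conjugate or otherwise clear reactive and foreign molecules, and their RNA was read in zymogenic and mucous neck cells taken from the mouse stomach. Members were chosen by symbol alone, from probe sets that the platform annotation gives exactly 1 gene. A symbol had to start with Aldh, with Ugt1 or Ugt2, with Cyp1, Cyp2 or Cyp3 and a letter, or with Gst followed by a class letter and a digit. These 102 genes, on 105 probe sets, stand among 19938 genes measured in all. They comprise 21 aldehyde dehydrogenase genes (Aldh), 19 glutathione S-transferase genes (Gst), 54 cytochrome P450 genes (Cyp) and 8 glucuronosyltransferase genes (Ugt). No Ugt1 gene had a probe set of its own, and 14 probe sets that carry a matching symbol among several genes were not used. The label of the group holds for most members but not for all, since for example Aldh18a1, Aldh5a1, Aldh6a1 and Gstz1 serve the metabolism of amino acids and Cyp2d37-ps is a pseudogene.

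Aldehyde dehydrogenases turn aldehydes, made from alcohol, lipid peroxidation, retinal or amino acid breakdown, into acids. Cytochrome P450 enzymes add oxygen to drugs, steroids and fatty acids, while glutathione S-transferases and glucuronosyltransferases couple reactive products to glutathione or to glucuronic acid so that they can be carried out of the cell. Many of these genes are best known from the liver, and several respond to the transcription factors NRF2 (antioxidant genes), AHR (P450 genes of family Cyp1) or the nuclear receptors of drug metabolism.

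There were 4 groups with 1 array each: zymogenic cells of MIST1-null mice, zymogenic cells of wild-type mice, neck cells of MIST1-null mice and neck cells of wild-type mice, all from adult stomach on a C57BL/6 background. MIST1, encoded by Bhlha15, is a transcription factor of secretory cells, and the null mice carry a knockout of it with no further allele named. Each array held RNA from several laser dissections and several animals, brought together to about 100.0 ng, and the design text names 5 MIST1-null and 4 wild-type mice with 2 caps per mouse. Zymogenic cells were recognised by their place below the lectin signal of neck mucus and by the absence of the parietal cell outline. Zymogenic cells were thus picked by shape and by position relative to that signal. A single array per group leaves every difference without a replicate check, and no p-values are given. In captured tissue, fewer cells of a type and less RNA per cell cannot be told apart.

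Bhlha15 itself had an intensity of 22.0 in MIST1-null and 149.8 in wild-type zymogenic cells, and of 20.2 in MIST1-null and 59.7 in wild-type neck cells, so it was low in both null arrays. The 6 mucous neck markers summed to 688.9 in MIST1-null and 1839 in wild-type zymogenic cells, against 11845 in MIST1-null and 9616 in wild-type neck cells. Of these, Tff2 differed most between the zymogenic arrays, at 276.7 in MIST1-null and 1320.4 in wild-type cells. Aqp5 ran against its place in the list. It read 92.0 in MIST1-null and 95.5 in wild-type zymogenic cells, against 62.5 in MIST1-null and 65.7 in wild-type neck cells. The 7 zymogenic markers summed to 24779 in MIST1-null and 23302 in wild-type zymogenic cells, against 14229 in MIST1-null and 14329 in wild-type neck cells, with Lipf and Cym under the detection level in all 4 arrays. One of them, the pepsinogen gene Pga5, ran against its place in the list, at 20.4 in MIST1-null and 31.0 in wild-type zymogenic cells, against 1884 in MIST1-null and 1349.5 in wild-type neck cells. Other cell types also left RNA. The 5 surface mucous markers summed to 10762 in MIST1-null and 8977 in wild-type zymogenic cells, against 6670 in MIST1-null and 6761 in wild-type neck cells. The 10 parietal cell markers summed to 8837 in MIST1-null and 5214 in wild-type zymogenic cells, against 10253 in MIST1-null and 9465 in wild-type neck cells. The 12 fibroblast and smooth muscle markers, of which Tagln and Des were under the level throughout, summed to 1990.4 in MIST1-null and 1635 in wild-type zymogenic cells, against 463.7 in MIST1-null and 685.8 in wild-type neck cells. The 9 endocrine markers, with Neurod1 under the level, summed to 13071 in MIST1-null and 9022 in wild-type zymogenic cells, against 3832 in MIST1-null and 5918 in wild-type neck cells. The part of these cells in the enzyme values was not tested. Of 4 measured liver markers, Alb and Fgb were under the level in every array, while Apoa1 and Ttr were above it in every array, at 1267 to 2819 for Apoa1 and 904 to 2600.2 for Ttr.

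Values are probe set intensities on a linear scale, and differences are given on the log2 scale, where 1 unit is a 2-fold difference. A gene counted as detectable in a comparison where the higher of its 2 intensities was at least 43.7, which is the median over 1-gene probe sets. The level was set from these arrays themselves and measures no background, so a difference against an array below it is not firm. By that rule 55 of the 102 enzyme genes (53.9%) were detectable in at least 1 comparison, against 12935 of 19938 genes in all (64.9%). The families differed in this share, which was 81.0% for Aldh, 73.7% for Gst, 75% for Ugt and 33.3% for Cyp genes. The 47 members below the level in all 4 arrays had intensities of 4.52 to 42.7 and included 36 of the 54 Cyp genes. Among those 36 were genes best known from liver, Cyp1a2, Cyp2e1, Cyp2b10 and Cyp3a11. In the Aldh family Aldh16a1, Aldh1a2, Aldh3b1 and Aldh8a1 stayed below it, and in the Gst family Gstm4, Gstm6, Gsto2, Gstp3 and Gstt4 did. At the other end, 24 members reached the level in all 4 arrays, among them 11 Aldh genes, 9 Gst genes, the P450 genes Cyp2d40, Cyp2j6 and Cyp3a13, and the glucuronosyltransferase gene Ugt2b34.

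**Figure D1:**
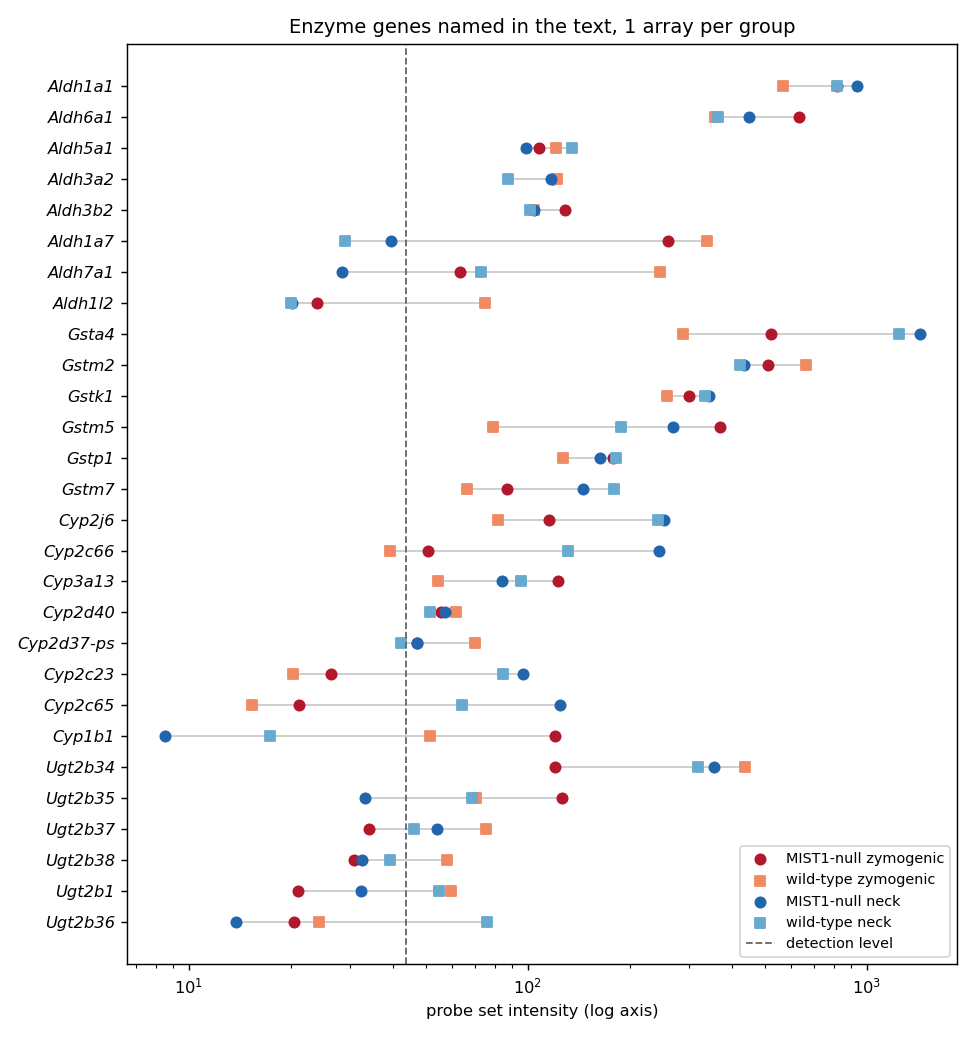
Intensity of the 28 enzyme genes named by rule in each of the 4 arrays, on a log axis, with 1 point per array; circles are MIST1-null and squares wild-type, red shades zymogenic and blue shades neck cells. The dashed line is the detection level of 43.7, and since probe sets differ in response, points should be compared along a line and not between genes. Aldh1a7 has both red points far to the right of both blue ones, while Cyp2c65 and Gsta4 show the reverse.

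The first question of the design is how zymogenic cells differ from neck cells. In both genotypes zymogenic cells had more RNA of the aldehyde dehydrogenase genes Aldh1a7 and Aldh7a1 and of the P450 gene Cyp1b1. They had less of the transferase gene Gsta4 and of the P450 genes Cyp2c23, Cyp2c65, Cyp2c66 and Cyp2j6. In MIST1-null mice 44 members were detectable. Of these, 6 (13.6%) stood higher in zymogenic cells by 2-fold or more, where 4.90% of all detectable genes were, and 6 (13.6%) stood lower, where 4.80% of all were. The median was 0.12 over the members and 0.05 over all detectable genes. In wild-type mice, of 51 detectable members, 6 (11.8%) stood higher in zymogenic cells, where 6.27% of all detectable genes were. Another 8 (15.7%) stood lower, where 6.78% of all were. There the member median was -0.06 and that of all genes 0.02. Both genotypes rest on separate arrays, and 3 of the higher members were shared (50% of each list), the ones just named. The 5 lower ones in common make up 83.3% of the MIST1-null and 62.5% of the wild-type list. Over all genes the common part was 33.9% of the MIST1-null and 25.4% of the wild-type list of higher genes, and 37.9% of the MIST1-null and 25.8% of the wild-type list of lower genes. With a pseudocount of 32 added to each intensity, Aldh1a7 alone stayed at least 2-fold higher in both genotypes. Aldh7a1 then had 0.65 in MIST1-null and Cyp1b1 0.76 in wild-type mice. Of the 5 lower ones, Cyp2j6 fell out, at -0.94 in MIST1-null mice. The lists of all genes were not recounted in that way. Over the 40 members detectable in both genotypes 23 (57.5%) had the same sign, against 6160 of 10165 genes in all (60.6%).

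**Figure D2:**
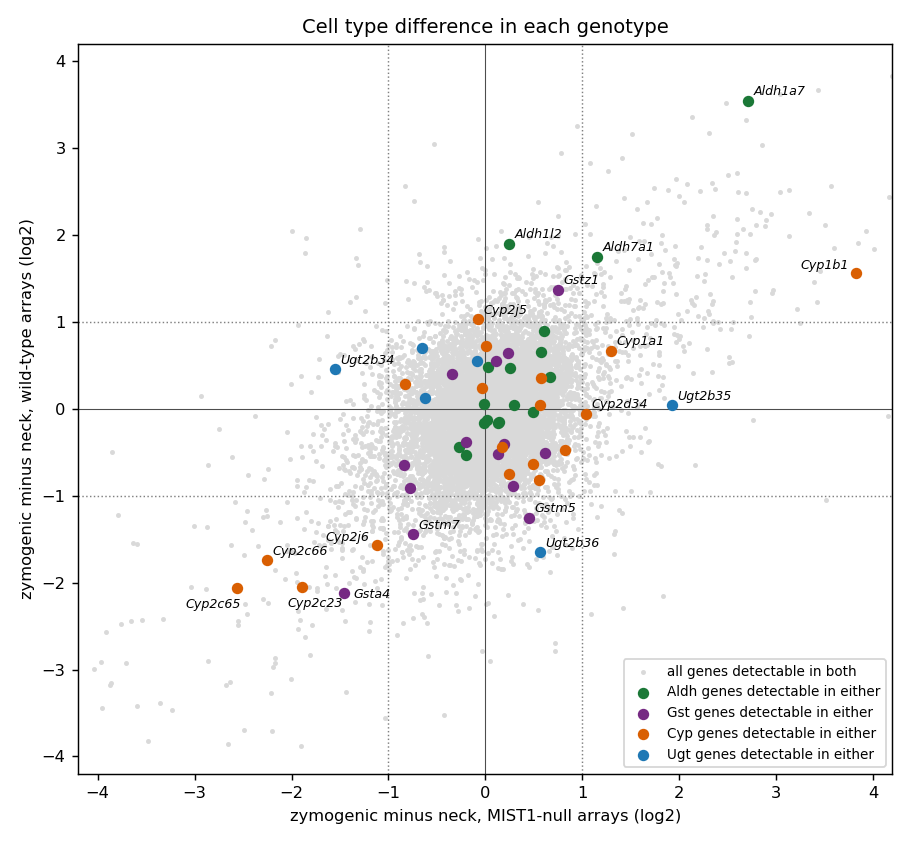
Zymogenic minus neck difference on the log2 scale in MIST1-null arrays (x axis) and in wild-type arrays (y axis), with each gene 1 point; coloured points are enzyme genes detectable in either genotype and grey points all genes detectable in both, of which a few lie outside the axes. Dotted lines mark 2-fold. Aldh1a7 lies at 2.71 and 3.55, and Gsta4 with the 3 Cyp2c genes lies between -1.46 and -2.56 in both genotypes.

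Aldh1a7, a rodent paralogue of the retinal-oxidising enzyme gene Aldh1a1, showed the largest cell type difference among the members in wild-type mice. Its intensity (probe set 10466624) was 259 in MIST1-null and 339 in wild-type zymogenic cells, against 39.6 in MIST1-null and 29.0 in wild-type neck cells. Both zymogenic arrays were far above both neck arrays, and the neck values lay under the detection level. On the log2 scale the zymogenic minus neck difference was 2.71 in MIST1-null and 3.55 in wild-type mice, and 2.02 and 2.61 with a pseudocount of 32 added to each intensity. Aldh1a1, which makes retinoic acid from retinal, went the other way in both genotypes. It had 815 in MIST1-null and 566 in wild-type zymogenic cells, against 936 in MIST1-null and 817 in wild-type neck cells, with differences of -0.20 in MIST1-null and -0.53 in wild-type mice. These neighbours lie on chromosome 19 with 0 protein-coding genes between them in assembly GRCm38.p6, and RNA of such near copies can mix on a probe.

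The start regions of the pair are shown because the arrays separated them. They are RefSeq sequences of build GRCm38.p6, each from 250 bases before to 50 after the start and read along the gene. That of Aldh1a7 is chr19:20727507-20727806 on the minus strand and that of Aldh1a1 is chr19:20601718-20602017 on the plus strand, the start more like Aldh1a7 of 2 listed. Capitals mark the E-box CANNTG, a motif bound by basic helix-loop-helix factors such as MIST1.
Aldh1a7: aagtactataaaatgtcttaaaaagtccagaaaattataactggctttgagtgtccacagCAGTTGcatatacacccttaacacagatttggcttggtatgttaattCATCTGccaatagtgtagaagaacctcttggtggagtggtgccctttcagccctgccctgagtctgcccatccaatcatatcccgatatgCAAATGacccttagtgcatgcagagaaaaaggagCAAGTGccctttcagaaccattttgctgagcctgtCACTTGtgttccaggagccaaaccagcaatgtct
Aldh1a1: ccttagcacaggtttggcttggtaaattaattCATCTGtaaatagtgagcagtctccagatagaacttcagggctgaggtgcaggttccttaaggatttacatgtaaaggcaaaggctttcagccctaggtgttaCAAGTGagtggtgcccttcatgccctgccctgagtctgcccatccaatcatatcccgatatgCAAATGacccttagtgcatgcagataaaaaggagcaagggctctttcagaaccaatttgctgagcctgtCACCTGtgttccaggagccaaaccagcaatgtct
An alignment of both regions had 72.4% identical positions over 322 columns. The Aldh1a7 region held 5 E-boxes and that of Aldh1a1 held 4, none of either in the form CAGCTG. On either strand, 72.3% of all 32851 start regions in the table held at least 1 E-box, and 16.3% held the form CAGCTG. Among 98 start regions of 85 members these shares were 77.6% and 13.3%. A match describes the letters of the region and is no evidence of binding.

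Aldh7a1, which oxidises an aldehyde of lysine breakdown, was the other dehydrogenase gene higher in zymogenic cells of both genotypes. Its intensity (probe set 10458960) was 63.1 in MIST1-null and 245 in wild-type zymogenic cells, against 28.4 in MIST1-null and 72.8 in wild-type neck cells. Wild-type zymogenic cells had the highest value and MIST1-null neck cells the lowest. Differences between the cell types were 1.15 in MIST1-null and 1.75 in wild-type mice, and with the pseudocount 0.65 in MIST1-null and 1.40 in wild-type mice. Aldh1l2, the mitochondrial formyltetrahydrofolate dehydrogenase of the folate pathway, was above the level in wild-type zymogenic cells only (probe set 10371332). It read 23.9 in MIST1-null and 74.8 in wild-type zymogenic cells, against 20.2 in MIST1-null and 20.1 in wild-type neck cells, a wild-type cell type difference of 1.90. Aldh2, the mitochondrial enzyme that clears acetaldehyde, was singled out after its values were seen. It passed the level in 1 array, with 40.5 in MIST1-null and 58.9 in wild-type zymogenic cells, against 26.8 in MIST1-null and 31.5 in wild-type neck cells, and stayed within 2-fold in each comparison.

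The remaining abundant dehydrogenase genes differed little between the cell types. Aldh6a1, which acts in valine breakdown, had 631 in MIST1-null and 356 in wild-type zymogenic cells, against 450.1 in MIST1-null and 365 in wild-type neck cells. Aldh5a1, the succinic semialdehyde dehydrogenase of the GABA pathway, had 108 in MIST1-null and 121 in wild-type zymogenic cells, against 98.6 in MIST1-null and 135 in wild-type neck cells. Aldh3a2, which oxidises fatty aldehydes, read 119 in MIST1-null and 122 in wild-type zymogenic cells, against 117 in MIST1-null and 87.8 in wild-type neck cells, and Aldh3b2, a related lipid aldehyde dehydrogenase gene, read 129 in MIST1-null and 104 in wild-type zymogenic cells, against 105 in MIST1-null and 101 in wild-type neck cells. Their zymogenic minus neck differences lay between -0.16 and 0.49. Over the Aldh family, 2 of 14 detectable genes were at least 2-fold higher in MIST1-null zymogenic than neck cells and 0 lower. The family median was 0.14. Of all detectable genes 4.90% were higher and 4.80% lower. Of the 2, Aldh7a1 had only 0.65 with the pseudocount. In wild-type mice 3 of 17 were higher and 0 lower, beside 6.27% and 6.78% of all, with a median of 0.06. One gene, Aldh3b3, had 3 probe sets that disagreed. The one used gave a wild-type cell type difference of 0.48, and the others gave 0.48 and -0.87.

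Among the glutathione S-transferases, Gsta4 showed the largest cell type difference. It encodes an alpha class enzyme that conjugates hydroxynonenal, an aldehyde of lipid peroxidation. Its intensity (probe set 10587315) was 523 in MIST1-null and 287 in wild-type zymogenic cells, against 1434 in MIST1-null and 1245 in wild-type neck cells. All 4 values were well above the detection level, and both neck arrays stood above both zymogenic arrays. Zymogenic minus neck was -1.46 in MIST1-null and -2.12 in wild-type mice. Gstm7, of the mu class (probe set 10501199), had 86.9 in MIST1-null and 66.2 in wild-type zymogenic cells, against 146 in MIST1-null and 179.6 in wild-type neck cells, with -0.74 in MIST1-null and -1.44 in wild-type mice. Gstm5, of the same class (probe set 10495243), had 369 in MIST1-null and 79.3 in wild-type zymogenic cells, against 269 in MIST1-null and 189 in wild-type neck cells. It was lowest in wild-type zymogenic and highest in MIST1-null zymogenic cells. The Gstm5 cell type difference was 0.45 in MIST1-null mice and -1.25 in wild-type mice, or -0.99 with the pseudocount in the wild type.

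Gstm2, Gstk1 and Gstp1, further transferase genes with values in all arrays above the level, differed by less than 2-fold in every comparison. Gstm2 is of the mu class and read 513 in MIST1-null and 662 in wild-type zymogenic cells, against 436 in MIST1-null and 422 in wild-type neck cells. Gstk1, the mitochondrial and peroxisomal kappa class gene, read 299 in MIST1-null and 257 in wild-type zymogenic cells, against 343 in MIST1-null and 335 in wild-type neck cells, and Gstp1, of the pi class, read 179 in MIST1-null and 127 in wild-type zymogenic cells, against 163 in MIST1-null and 182 in wild-type neck cells. The Gst median over 13 detectable genes was 0.11 in MIST1-null mice. In wild-type mice 10 of the 14 detectable Gst genes were lower in zymogenic cells by any amount, beside 5697 of 11778 genes in all. The Gst median there was -0.51. Gstm3 had 2 probe sets, of which the one used gave a wild-type cell type difference of 0.55 and the other -0.19. Gstz1, which isomerises a product of tyrosine breakdown, was the Gst gene at least 2-fold higher in wild-type zymogenic cells, with 30.2 in MIST1-null and 74.3 in wild-type zymogenic cells, against 18 in MIST1-null and 28.7 in wild-type neck cells. Its difference of 1.37 fell to 0.81 with the pseudocount.

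The P450 genes Cyp2c65, Cyp2c66, Cyp2c23 and Cyp2j6 stood lower in zymogenic cells of both genotypes. Cyp2c65 and Cyp2c66 are neighbours on chromosome 19 whose products oxidise arachidonic acid. Cyp2c65 (probe set 10463016) read 21.2 in MIST1-null and 15.3 in wild-type zymogenic cells, against 125 in MIST1-null and 64.2 in wild-type neck cells. The zymogenic values were both under the detection level, and the differences were -2.56 in MIST1-null and -2.06 in wild-type mice. Cyp2c66 (probe set 10463023) read 50.9 in MIST1-null and 39.3 in wild-type zymogenic cells, against 243 in MIST1-null and 131 in wild-type neck cells, with differences of -2.26 in MIST1-null and -1.74 in wild-type mice. The order of the 4 arrays was the same for both genes, highest in MIST1-null neck cells, then wild-type neck, MIST1-null zymogenic and wild-type zymogenic cells. Since the genes are close copies, a shared probe signal is uncertain. Cyp2c23, an epoxygenase gene of arachidonic acid best known from kidney (probe set 10467897), read 26.2 in MIST1-null and 20.3 in wild-type zymogenic cells, against 97.2 in MIST1-null and 84.4 in wild-type neck cells. Its differences were -1.89 in MIST1-null and -2.06 in wild-type mice. Cyp2j6, of a subfamily that epoxidises fatty acids (probe set 10514510), read 116 in MIST1-null and 81.9 in wild-type zymogenic cells, against 252 in MIST1-null and 242 in wild-type neck cells. It was above the level in all arrays, and its differences were -1.12 in MIST1-null and -1.57 in wild-type mice, or -0.94 with the pseudocount in the null mice. The parietal cell markers moved the same way in wild-type mice. Of 10 detectable ones, 6 were lower in zymogenic than in neck cells of MIST1-null mice (median -0.11) and 10 in wild-type mice (5 of them by 2-fold or more), and their part in these values was not tested.

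The start regions of the members lower in zymogenic cells were searched for the antioxidant response element core TGACNNNGC, the sequence that NRF2 binds with small MAF partners. It was found on either strand in 3 of the 4 genes with a region in the table among the 6 that were at least 2-fold lower in MIST1-null zymogenic than neck cells (75%). Among the 8 lower in wild-type zymogenic cells it was in 5 of 6 (83.3%), and among the 6 higher in wild-type zymogenic cells in 0 of 4. The 3 genes with the core in the MIST1-null list are also among the 5 of the wild-type list. The core was in 8 of 85 members (9.41%) and in 3781 of 27025 genes in all (14.0%). Among members detectable in any comparison, from which these lists were drawn, the core was in 7 of 42 (16.7%). The high share in the lower lists was noticed after the values were seen, rests on few genes, and says nothing of what binds there. Gsta4 and Cyp2c23 had no entry. The 5 regions are shown with the core in capitals, from RefSeq build GRCm38.p6 and read along the gene: Cyp2c65 at chr19:39060756-39061055 (plus strand), Cyp2c66 at chr19:39113648-39113947 (plus strand), Cyp2j6 at chr4:96553602-96553901 (minus strand), Gstm5 at chr3:107895604-107895903 (plus strand) and Gstm7 at chr3:107931565-107931864 (minus strand, 1 of 2 starts).
Cyp2c65: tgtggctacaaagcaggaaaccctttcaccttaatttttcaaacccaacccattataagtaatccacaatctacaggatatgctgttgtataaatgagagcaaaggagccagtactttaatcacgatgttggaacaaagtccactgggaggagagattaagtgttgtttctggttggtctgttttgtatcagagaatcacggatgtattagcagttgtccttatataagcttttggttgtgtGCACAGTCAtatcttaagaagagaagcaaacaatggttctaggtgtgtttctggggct
Cyp2c66: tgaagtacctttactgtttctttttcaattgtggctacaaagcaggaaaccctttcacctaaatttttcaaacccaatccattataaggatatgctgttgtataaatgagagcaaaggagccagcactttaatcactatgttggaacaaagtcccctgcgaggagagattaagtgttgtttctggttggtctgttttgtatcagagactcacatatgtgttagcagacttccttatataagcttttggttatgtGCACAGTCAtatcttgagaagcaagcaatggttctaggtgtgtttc
Cyp2j6: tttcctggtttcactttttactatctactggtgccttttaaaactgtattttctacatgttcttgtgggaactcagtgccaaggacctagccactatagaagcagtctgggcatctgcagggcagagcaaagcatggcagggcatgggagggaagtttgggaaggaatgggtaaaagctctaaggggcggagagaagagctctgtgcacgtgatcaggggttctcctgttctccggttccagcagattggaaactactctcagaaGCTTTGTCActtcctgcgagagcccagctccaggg
Gstm5: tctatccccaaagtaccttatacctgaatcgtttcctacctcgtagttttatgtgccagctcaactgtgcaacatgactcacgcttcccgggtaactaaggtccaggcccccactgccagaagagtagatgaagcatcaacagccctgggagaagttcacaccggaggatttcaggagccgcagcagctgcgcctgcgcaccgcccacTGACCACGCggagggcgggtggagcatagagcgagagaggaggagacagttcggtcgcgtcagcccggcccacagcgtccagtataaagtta
Gstm7: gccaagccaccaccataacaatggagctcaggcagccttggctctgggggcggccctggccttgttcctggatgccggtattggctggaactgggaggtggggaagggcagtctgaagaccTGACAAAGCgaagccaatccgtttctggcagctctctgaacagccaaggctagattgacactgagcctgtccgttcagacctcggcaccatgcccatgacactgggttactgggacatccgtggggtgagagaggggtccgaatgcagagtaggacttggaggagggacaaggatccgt
The Cyp2c65 and Cyp2c66 regions had 77.8% identical positions over 329 alignment columns, so their shared core is not an independent match. Over single start regions, the core was in 12.4% of all 32851 and in 8.16% of 98 member regions. The AHR core GCGTG was in 32.4% of all and in 23.5% of member regions.

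Cyp1b1, a P450 gene that AHR induces and that is known from stromal cells, was higher in zymogenic cells of both genotypes. Its intensity (probe set 10453057) was 120.5 in MIST1-null and 51.7 in wild-type zymogenic cells, against 8.5 in MIST1-null and 17.4 in wild-type neck cells. Both neck values were under the level, and the difference was 3.82 in MIST1-null and 1.57 in wild-type mice, or 1.91 and 0.76 with the pseudocount. The fibroblast and smooth muscle markers moved the same way. All 10 detectable ones were higher in zymogenic cells of both genotypes, 8 of them at least 2-fold in MIST1-null and 6 in wild-type mice, with medians of 2.41 and 1.26. Their part in the Cyp1b1 value was not tested. Another 2 P450 genes were at least 2-fold higher in MIST1-null zymogenic than neck cells with the floor at an intensity of 1 but not with the pseudocount. Cyp1a1, the P450 that AHR induces in most tissues, read 61.2 in MIST1-null and 33.8 in wild-type zymogenic cells, against 25.0 in MIST1-null and 21.2 in wild-type neck cells, and Cyp2d34, a member of the Cyp2d cluster, read 56.1 in MIST1-null and 44.5 in wild-type zymogenic cells, against 27.2 in MIST1-null and 46.3 in wild-type neck cells. Cyp2j5 passed 2-fold in wild-type mice in the same limited way, with a difference of 1.03 and 0.53 with the pseudocount. The Cyp2d genes of highest intensity showed no difference of that size. Cyp2d40 read 55.5 in MIST1-null and 61.3 in wild-type zymogenic cells, against 57.0 in MIST1-null and 51.7 in wild-type neck cells, and the pseudogene Cyp2d37-ps read 47.3 in MIST1-null and 70.1 in wild-type zymogenic cells, against 47.2 in MIST1-null and 42.4 in wild-type neck cells. The Cyp median, over 14 detectable genes in each genotype, was 0.25 in MIST1-null and -0.54 in wild-type mice.

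The glucuronosyltransferase genes, which lie in 1 cluster on chromosome 5, followed no common cell type pattern. Ugt2b34 (probe set 10531034) read 120.4 in MIST1-null and 438 in wild-type zymogenic cells, against 354 in MIST1-null and 319 in wild-type neck cells. The MIST1-null zymogenic value stood apart below the other 3, and the cell type difference was -1.56 in MIST1-null and 0.46 in wild-type mice. Ugt2b35 (probe set 10522819) read 126 in MIST1-null and 70.5 in wild-type zymogenic cells, against 33.3 in MIST1-null and 68.4 in wild-type neck cells, with 1.93 in MIST1-null and 0.04 in wild-type mice. Ugt2b36 (probe set 10531051) passed the level in wild-type neck cells only, at 20.4 in MIST1-null and 24.2 in wild-type zymogenic cells, against 13.8 in MIST1-null and 76.0 in wild-type neck cells. Its wild-type difference of -1.65 was -0.94 with the pseudocount. Like Gstm and Cyp2d genes, these are close copies whose probe values may mix.

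The second question is what differs without MIST1. In zymogenic cells Gstm5 was the enzyme gene that stood highest in MIST1-null relative to wild-type mice, while Aldh7a1 and Ugt2b34 stood lowest. Of 49 detectable members, 4 (8.16%) were at least 2-fold higher in MIST1-null zymogenic cells, beside 5.15% of all detectable genes. Lower by that size were 7 (14.3%), beside 5.23% of all. The median over the members was 0.13 and over all genes 0.04. In neck cells 0 of 43 members were at least 2-fold higher in MIST1-null mice, beside 1.89% of all detectable genes, and 3 (6.98%) were lower, beside 2.40%. The neck median was 0.04 for the members and 0.00 for all genes. The wild-type zymogenic array enters both the zymogenic genotype difference and the wild-type cell type difference, so a value out of place on it would move both. Zymogenic and neck genotype differences rest on separate arrays, and of the members lower in each, Aldh7a1 alone was shared (14.3% of the zymogenic and 33.3% of the neck list). Over all genes the shared part of the lower lists was 5.98% of the zymogenic and 14.1% of the neck list. Of 37 members detectable in both cell types 18 (48.6%) had the same sign, against 5450 of 9857 genes (55.3%).

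**Figure D3:**
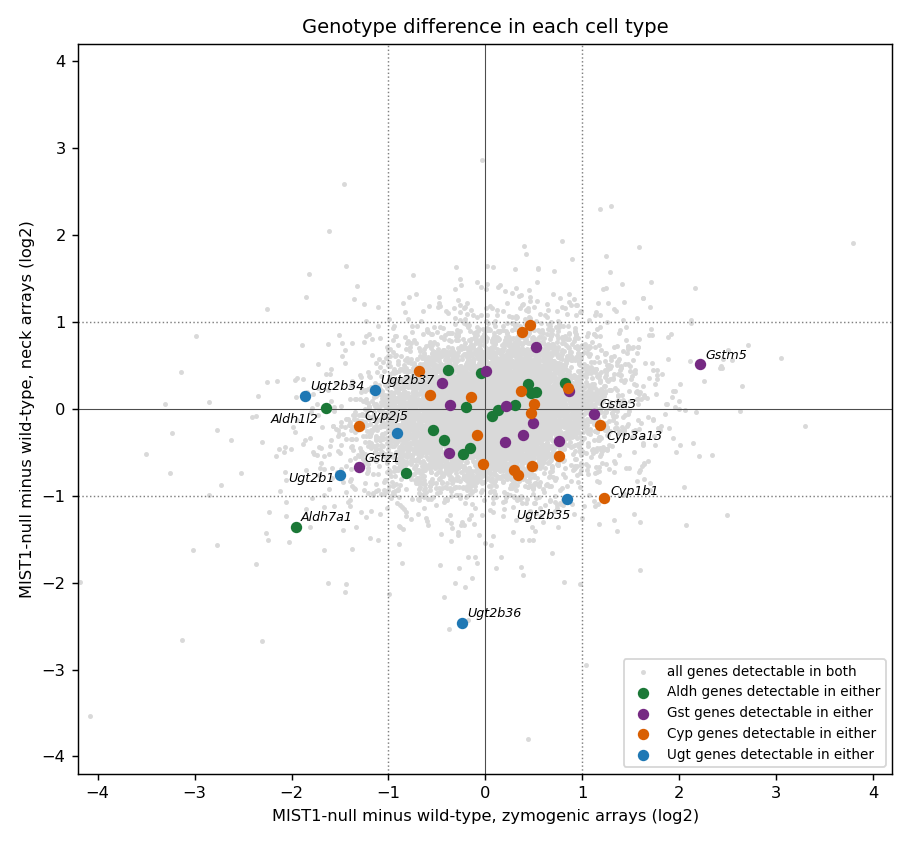
MIST1-null minus wild-type difference on the log2 scale in zymogenic arrays (x axis) and in neck arrays (y axis), with each gene 1 point; coloured points are enzyme genes detectable in either cell type and grey points all genes detectable in both, of which a few lie outside the axes. Dotted lines mark 2-fold. Gstm5 lies far right at 2.22 with a neck value of 0.51, Ugt2b36 lies lowest at -2.46 in neck cells, and Aldh7a1 is below -1 on both axes.

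Gstm5 had 369 in MIST1-null and 79.3 in wild-type zymogenic cells, a difference of 2.22, or 1.85 with the pseudocount. In neck cells it had 269 in MIST1-null and 189 in wild-type neck cells, a difference of 0.51. The other mu class genes in its cluster on chromosome 3 differed less. Gstm7, its next neighbour, had 0.39 in zymogenic and -0.30 in neck cells. Gstm2 had -0.37 and 0.04, and Gstm1 -0.38 and -0.51, in the same order of cell types. Gstm6 and Gstm4 were under the level in every array. Gsta4 was 0.86 in zymogenic and 0.20 in neck cells, higher in MIST1-null mice in both but within 2-fold. Gsta3, a further alpha class gene, read 53.1 in MIST1-null and 24.5 in wild-type zymogenic cells, against 43.6 in MIST1-null and 45.4 in wild-type neck cells, and its zymogenic difference of 1.12 was 0.59 with the pseudocount. Of 14 detectable Gst genes in zymogenic cells, 10 were higher in MIST1-null mice by any amount, beside 6257 of 11826 genes in all. Their median was 0.30. Of the 4 lower ones, Gstz1 passed 2-fold, with 30.2 in MIST1-null and 74.3 in wild-type zymogenic cells. Its difference was -1.30, or -0.77 with the pseudocount. In neck cells the median of 13 Gst genes was 0.04.

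Aldh7a1 was the dehydrogenase gene with the largest difference. It had 63.1 in MIST1-null and 245 in wild-type zymogenic cells, a difference of -1.96, and 28.4 in MIST1-null and 72.8 in wild-type neck cells, a difference of -1.36. With the pseudocount these were -1.54 and -0.79, so the neck difference no longer reached 2-fold. Aldh1l2 had a zymogenic difference of -1.65, or -0.93 with the pseudocount, and was under the level in both neck arrays. Aldh1a7 had -0.39 in zymogenic cells, while Aldh1a1 had 0.53. Aldh6a1 stood higher in MIST1-null mice in both cell types, by 0.82 in zymogenic and 0.30 in neck cells. For Aldh5a1 the values were -0.16 and -0.45, for Aldh3a2 -0.04 and 0.42, and for Aldh3b2 0.31 and 0.05, zymogenic before neck. In zymogenic cells 17 Aldh genes were detectable, of which 2 were lower by 2-fold or more and 0 higher, with a median of -0.16. Of all detectable genes 5.23% were lower and 5.15% higher.

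Among the P450 genes, Cyp3a13, a Cyp3a gene of gut and liver, had 123 in MIST1-null and 54.3 in wild-type zymogenic cells and 84.0 in MIST1-null and 95.8 in wild-type neck cells. The MIST1-null zymogenic value was the highest and the wild-type zymogenic value the lowest, a difference of 1.18, or 0.84 with the pseudocount, against -0.19 in neck cells. Cyp1b1 had a zymogenic difference of 1.22, or 0.86 with the pseudocount. The genes low in zymogenic cells, Cyp2c65 and Cyp2c66, were higher in MIST1-null than in wild-type neck cells by 0.96 and 0.89, just within 2-fold. Cyp2j6 had 0.50 in zymogenic and 0.06 in neck cells. Across 13 detectable Cyp genes in zymogenic cells the median was 0.47 and 9 were above 0, beside 6257 of 11826 genes in all. Of the 4 below 0, Cyp2j5 passed 2-fold, with 19.4 in MIST1-null and 47.9 in wild-type zymogenic cells. Its difference was -1.30, or -0.64 with the pseudocount. Over the same comparison all 9 detectable parietal cell markers were above 0, 2 of them at least 2-fold, with a median of 0.72. The part of parietal cells in the Cyp and Gst values was not tested.

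In the glucuronosyltransferase cluster 3 of the 5 genes detectable in zymogenic cells were at least 2-fold lower in MIST1-null mice. The share over all detectable genes was 5.23%, and of the 3 only Ugt2b34 kept 2-fold with the pseudocount. Ugt2b34 had 120.4 in MIST1-null and 438 in wild-type zymogenic cells, a difference of -1.86, or -1.63 with the pseudocount, and its neck difference was 0.15. Ugt2b37 read 34.1 in MIST1-null and 75.2 in wild-type zymogenic cells, against 53.9 in MIST1-null and 46.2 in wild-type neck cells, with -1.14 in zymogenic and 0.22 in neck cells. Ugt2b1 read 21.0 in MIST1-null and 59.6 in wild-type zymogenic cells, against 32.3 in MIST1-null and 54.8 in wild-type neck cells, with -1.50 and -0.76. For these genes the MIST1-null zymogenic intensity was below the level, and the differences were -0.70 and -0.79 with the pseudocount. Ugt2b38 read 30.8 in MIST1-null and 57.7 in wild-type zymogenic cells, against 32.6 in MIST1-null and 39.4 in wild-type neck cells, a zymogenic difference of -0.91. Against this direction Ugt2b35 had a zymogenic difference of 0.84, and a neck difference of -1.04, or -0.62 with the pseudocount. Ugt2b36 had the largest neck difference of the members, -2.46, or -1.24 with the pseudocount. The family median was -1.14 over 5 genes in zymogenic and -0.76 over 5 genes in neck cells.

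**Figure D4:**
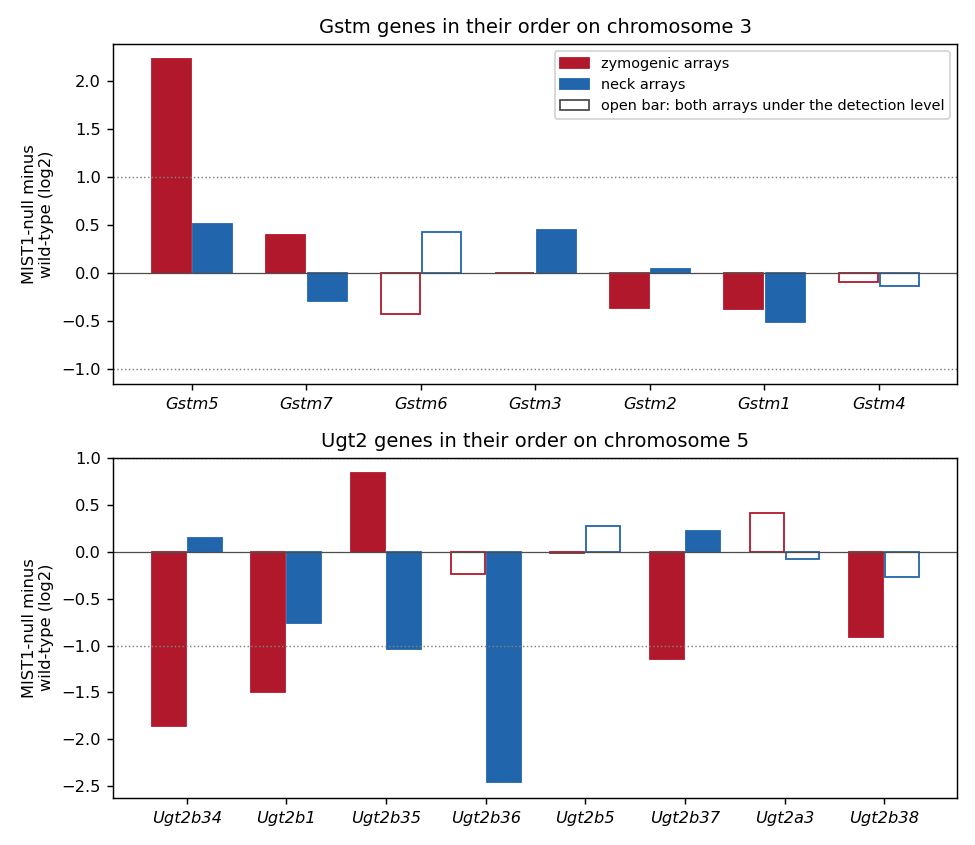
MIST1-null minus wild-type difference on the log2 scale for the Gstm genes of chromosome 3 (upper panel) and the Ugt2 genes of chromosome 5 (lower panel), placed by gene order in assembly GRCm38.p6 and not by distance; red bars are zymogenic and blue bars neck arrays, and open bars have both arrays under the detection level. Gstm5 stands at 2.22 beside Gstm7 at 0.39, and the Ugt2 genes point both ways.

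Genes of neighbouring pathways were read from lists outside the naming rule. The shares of all detectable genes at 2-fold or more serve for comparison with each list. Between zymogenic and neck cells these were 4.90% higher and 4.80% lower in MIST1-null mice, and 6.27% and 6.78% in wild-type mice. Between MIST1-null and wild-type mice they were 5.15% higher and 5.23% lower in zymogenic cells, and 1.89% and 2.40% in neck cells. The lists are short and were not tested. Among 17 measured aldehyde and alcohol oxidoreductases, 0 of 11 detectable genes were 2-fold apart between the cell types of MIST1-null mice (median -0.11). In wild-type mice 1 of 11 was at least 2-fold higher in zymogenic than neck cells and 2 were lower, with a median of -0.41. Aox1, an aldehyde oxidase, was the higher one at 1.33, and Akr1c19 and Akr7a5, aldo-keto reductases, the lower ones at -1.13 and -1.17. Between genotypes, 2 of 12 detectable genes were at least 2-fold higher in MIST1-null zymogenic cells, Adh7 at 1.17 and Akr1c19 at 1.39. Aox1 was lower there at -1.42. With the pseudocount these values were 0.58, 0.95 and -0.74. The wild-type cell type differences were then 0.70 for Aox1, -0.75 for Akr1c19 and -0.74 for Akr7a5, so none of these reached 2-fold. In neck cells 0 of 11 passed, with a median of 0.11. Adh7 is an alcohol dehydrogenase known from the stomach.

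Among 25 measured glutathione genes outside the Gst classes, Mgst2, a microsomal transferase, had the largest cell type difference. It read 70.2 in MIST1-null and 41.9 in wild-type zymogenic cells, against 662 in MIST1-null and 464 in wild-type neck cells, with -3.24 in MIST1-null and -3.47 in wild-type mice. In MIST1-null mice Gpx3 was at least 2-fold higher in zymogenic cells at 2.35 and 4 of 20 detectable genes were lower, Mgst2, Mgst1, Hpgds and Gsr, with a median of -0.27. In wild-type mice 2 of 18 stood higher, Gpx3 and Gpx8, and 4 lower, Mgst2, Mgst3, Glrx and Gpx4, with a median of -0.59. Gpx3, a secreted peroxidase, and Glrx, a glutaredoxin, were at least 2-fold higher in MIST1-null than in wild-type zymogenic cells, by 1.51 and 1.75, and 0 of 17 were lower (median 0.62). In neck cells Ptgds was higher at 1.16 and Gpx4 lower at -1.08 of 20 detectable, with a median of 0.19. With the pseudocount these neck values fell below 2-fold, at 0.62 and -0.95. So did Mgst1 (-0.72) and Hpgds (-0.52) between the cell types of MIST1-null mice, and Gpx3 (0.64) in wild-type mice.

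Nfe2l2, the gene of NRF2, read 579.9 in MIST1-null and 315 in wild-type zymogenic cells, against 929 in MIST1-null and 724 in wild-type neck cells. Both neck arrays stood above both zymogenic arrays, and the difference was -0.68 in MIST1-null and -1.20 in wild-type mice. Of the 19 measured genes of the NRF2 list, which shares Gclc, Gclm, Gsr and Slc7a11 with the glutathione list, 14 were detectable in each comparison. In MIST1-null mice Nqo1 and Gsr stood lower in zymogenic cells by 2-fold or more, at -1.46 and -1.55, and the median was -0.17. In wild-type mice 12 of the 14 were lower in zymogenic cells by any amount, beside 5697 of 11778 genes in all. Nfe2l2 itself and Pgd were the 2 lower by 2-fold or more. The list median was -0.52, against 0.02 over all detectable genes. Pgd, of the pentose phosphate pathway, and Me1, malic enzyme, were at least 2-fold higher in MIST1-null than in wild-type zymogenic cells. They stood at 1.26 and 1.16, or 0.66 and 0.65 with the pseudocount, and the list median was 0.44. Nqo1 between the cell types of MIST1-null mice was -0.92 with the pseudocount. In neck cells 0 passed and the median was 0.12. The parietal cell markers moved with the NRF2 and glutathione lists, lower for 10 of 10 in wild-type zymogenic against neck cells and higher for 9 of 9 in MIST1-null against wild-type zymogenic cells, and their part was not tested.

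Xenobiotic receptors and P450 partners showed 1 gene past 2-fold over all 4 comparisons. That was Hnf4a, a nuclear receptor of gut and liver epithelium, at -1.29 between MIST1-null zymogenic and neck cells, or -0.96 with the pseudocount. The list medians, over 9 or 10 detectable of 13 measured genes, were 0.12 for genotype in zymogenic and 0.05 in neck cells, and 0.06 for cell type in MIST1-null and -0.08 in wild-type mice. Nr1i2, the receptor PXR, was under the level in every array, and Ahr read 51.5 in MIST1-null and 71.4 in wild-type zymogenic cells, against 56.2 in MIST1-null and 35.8 in wild-type neck cells.

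Other conjugating and hydrolysing enzymes differed between the cell types in both directions. In MIST1-null mice Sult1b1 and Papss2, which makes the sulfate donor, were the 2 of 11 detectable genes that stood lower in zymogenic cells by 2-fold or more (list median -0.39). In wild-type mice 2 of 12 detectable genes stood higher in zymogenic cells by 2-fold or more, Ces1d at 2.95 and Sult1a1 at 1.97, a carboxylesterase and a sulfotransferase gene. Another 5 were lower, Sult1b1 at -2.97, Ces2a at -1.81, Sult1d1 at -1.58, Papss2 at -1.28 and Sult1c2 at -1.26, with a list median of -0.57. The genotype comparison in zymogenic cells had Sult1d1 and Ces2a at least 2-fold higher in MIST1-null mice, at 1.94 and 1.64. Sult1a1 and Ces1d were lower there at -1.49 and -1.66, of 11 detectable, with a median of 0.09. In neck cells 0 of 10 passed either way. With the pseudocount the Papss2 difference fell below 2-fold, at -0.78 between the cell types in MIST1-null and -0.87 in wild-type mice.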

How the data were processed

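Laser-captured cells gave RNA for 4 Affymetrix Mouse Gene 1.0ST arrays, 1 per group. The deposited values are probe set intensity values, which the authors made with dChip per the series design text; how they corrected background, summarised probes and scaled arrays was not given in the sources used here. Signal over background is unknown, and precision is limited by the number of arrays. Array medians over all 35512 probe sets were 37.9 to 40.9.

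The platform annotation pairs 21789 of these probe sets with 1 gene, which were used; it pairs 1621 with several and leaves 12102 unlisted. Each gene was represented by its probe set with the highest mean, giving 19938 genes. All 102 member symbols matched RefSeq (GRCm38.p6), which gave names, chromosomes and gene order. Intensities were floored at 1 and taken to log2; no value of a 1-gene probe set lay at the floor. Detectable genes reached log2 5.45 in 1 of the 2 arrays, and counts were made at 2-fold, without tests. Members named were those 2-fold apart with the floor and with a pseudocount of 32 (14 genes), plus the 5 of highest mean level in each family, 28 in all. The members and lists were chosen with earlier results of these data known. Alternatives were the pseudocount, quantile normalization, median centring, no filter, a 75th percentile filter, the mean of probe sets and 1.5-fold. Counting was checked on made-up data with known answers. Python 3.11.15, pandas 2.3.3, numpy 2.4.6, Biopython 1.88 and matplotlib 3.10.9 were used.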

Additional observations from a re-analysis of the deposited data

Results flagged for a closer look

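Some enzyme genes, 7 in number, were picked out because the same contrast pointed opposite ways in 2 settings, by at least 2-fold in one of them and with at least 1 log2 unit between them, in genes detectable in both settings. Each side rests on 1 pair of arrays, and the difference between them was not tested. How many of all genes meet this rule was not counted, so the 7 cannot be set against a general share. With the pseudocount, Ugt2b34 alone kept 2-fold in these contrasts, at -1.63 between genotypes and -1.34 between cell types. On the side past 2-fold, the others then had -0.70 (Ugt2b37), -0.62 (Ugt2b35), 0.84 (Cyp3a13), 0.59 (Gsta3), -0.99 (Gstm5) and 0.57 (Cyp2d34). Ugt2b34 was -1.86 for MIST1-null minus wild-type in zymogenic cells and 0.15 in neck cells, and its zymogenic minus neck difference was -1.56 in MIST1-null and 0.46 in wild-type mice. Both statements turn on the MIST1-null zymogenic intensity of 120.4, which stands below the other 3 arrays. Ugt2b37 was -1.14 in zymogenic and 0.22 in neck cells between genotypes, and Ugt2b35, of the same cluster, was 0.84 and -1.04. Cyp3a13 was 1.18 in zymogenic and -0.19 in neck cells, and Gsta3 was 1.12 and -0.06. Gstm5 had a zymogenic minus neck difference of 0.45 in MIST1-null and -1.25 in wild-type mice, with the wild-type zymogenic array lowest. Cyp2d34 had 1.04 in MIST1-null and -0.06 in wild-type mice, with intensities of 27.2 to 56.1 close to the detection level.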

How the results depend on the processing

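Counts of enzyme genes at 2-fold depended on how low intensities were treated. The member medians moved by at most 0.1 with the pseudocount, quantile normalization, median centring and the mean of probe sets, though the neck genotype median turned from 0.04 to -0.01 with quantile normalization. Medians were not recomputed with the other filters. With a pseudocount of 32, the genotype counts were 1 higher and 2 lower in zymogenic cells, and 0 higher and 1 lower in neck cells. Between cell types they were 3 higher and 5 lower in MIST1-null mice, and 3 higher and 6 lower in wild-type mice. For the settings that follow, a count is given only where it changed by a ratio above 1.5, or appeared or vanished. Shares over all genes were counted for the main setting only, so these counts compare settings and not enzyme genes with other genes. Without the filter on low values the counts were 13 lower between genotypes in zymogenic cells, and 2 higher and 9 lower in neck cells. Between cell types they were 12 lower in MIST1-null and 10 higher in wild-type mice. With the filter at the 75th percentile they were 2 lower between genotypes in zymogenic and 0 lower in neck cells, and 3 higher between cell types in MIST1-null and 2 higher in wild-type mice. At 1.5-fold they were 10 higher between genotypes in zymogenic cells, 3 higher and 9 lower in neck cells, 11 lower between cell types in MIST1-null mice, and 11 higher and 14 lower in wild-type mice. Median centring gave 1 higher in neck cells, Cyp2c65 at 1.01. Of 33 differences of named genes that were detectable and at least 2-fold, 12 fell below 2-fold with the pseudocount and none changed sign. Quantile normalization and median centring each moved 1 of them below it, Ugt2b35 in neck cells, to -0.98 and -0.99. Averaging the probe sets of a gene moved none of them. Some named genes were chosen because a difference held with the pseudocount, so the 12 of 33 is partly set by that choice. The pseudocount counts over all members, given above, are not limited in this way. Small differences did change sign: 3 with quantile normalization (Gstk1, Gstm2 and Cyp2j6 between genotypes in neck cells) and 1 with median centring (Aldh3a2 between the cell types of MIST1-null mice), all of at most 0.06. Cyp1b1 in neck cells, under the detection level in both arrays, had -1.03 and is outside these counts. Members near the level of 43.7 are therefore the least firm. No paired analysis was possible because each group has 1 array.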

Other observations

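Genes of the pathway of retinoic acid, a product of Aldh1a1, were read from a list of 15 measured genes. Dhrs9 and Rbp4 were at least 2-fold higher in MIST1-null than in wild-type zymogenic cells, among 12 detectable genes with a median of 0.44. They stood at 1.70 and 1.38, or 0.83 and 1.11 with the pseudocount. Of all detectable genes 5.15% were higher by 2-fold or more there. Dhrs9 is a retinol dehydrogenase gene and Rbp4 the gene of the retinol carrier of blood. In neck cells Rbp7 was lower in MIST1-null mice at -1.05, or -0.89 with the pseudocount, of 8 detectable with a median of -0.52. Of all detectable genes 2.40% were lower by 2-fold or more there. In the same comparison 9 of 9 detectable fibroblast and smooth muscle markers were lower (median -0.56), as were 5 of 6 endocrine (median -0.82) and 4 of 5 immune markers (median -0.69). Between cell types, Dhrs9 was 0.39 in MIST1-null and -2.25 in wild-type mice. In MIST1-null mice Rbp4 and Rbp7 were the 2 of 10 at least 2-fold higher in zymogenic cells, beside 4.90% of all detectable genes. They stood at 2.34 and 1.04, or 1.73 and 0.88 with the pseudocount, with a list median of 0.53. In wild-type mice Dhrs9 and Dhrs3 were the 2 of 10 at least 2-fold lower, beside 6.78% of all detectable genes, with a list median of 0.23. With the pseudocount they stood at -1.20 and -1.01. The fibroblast and smooth muscle markers were higher in zymogenic cells for 10 of 10 in both genotypes, the endocrine markers for 7 of 8 in MIST1-null and 8 of 8 in wild-type mice, and the immune markers for 5 of 6 in each. The part of these cells in the values of the retinoic acid pathway list was not tested.

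Carriers that export drugs and conjugates comprised 8 measured genes. Abcg2 read 60.5 in MIST1-null and 18.6 in wild-type zymogenic cells, against 18.2 in MIST1-null and 24.2 in wild-type neck cells, so it passed the detection level in MIST1-null zymogenic cells alone, and Abcc5 read 117 in MIST1-null and 43.4 in wild-type zymogenic cells, against 78.5 in MIST1-null and 74.8 in wild-type neck cells. These were the 2 of 5 detectable carriers higher in MIST1-null zymogenic cells by 2-fold or more (list median 0.69), beside 5.15% of all detectable genes. Their differences of 1.70 and 1.43 were 0.87 and 0.98 with the pseudocount, under 2-fold. Abcc2, which exports glutathione conjugates, read 68.7 in MIST1-null and 42.6 in wild-type zymogenic cells, against 35.4 in MIST1-null and 111 in wild-type neck cells and was highest in wild-type neck cells. It was at least 2-fold lower in MIST1-null neck cells, at -1.66, and in wild-type zymogenic cells against neck cells, at -1.39. With the pseudocount these were -1.09 and -0.94. Of all detectable genes 2.40% and 6.78% were lower by 2-fold or more in these comparisons.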
